A study of Mus musculus with 15 samples.

Results

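Lowering of MLX activity in C2C12 cells was read from 6 libraries, 3 with a dominant-negative form of MLX (MLX-DN) and 3 with a hairpin RNA that targets Mlx (MLX shRNA). They were set against 6 control libraries, 3 labelled GFP control, which the protocol calls an empty vector, and 3 with a non-targeting hairpin (NT shRNA). These are 12 of the 15 libraries of the study. A gene was taken up when all 6 loss libraries lay above, or all below, all 6 control libraries. Of 11945 genes with at least 1 FPKM (fragments per kilobase, scaled to the reads of the library) in at least 3 of the 15 libraries, 993 lay above the controls (8.31%) and 2189 below (18.3%), 3182 in all (26.6%). Another 100 genes above and 215 below were under that filter and were not tested.

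C2C12 cells are myoblasts of mouse origin that can fuse into muscle fibres in culture. All groups were given a construct by lentivirus. The remaining 3 libraries, with added wild-type MLX (MLX-WT), entered the fit for the spread and are quoted beside some genes. Each group is known by its construct alone, so an effect of a construct that does not run through MLX cannot be told apart from one that does. Separate cultures are not named for the 3 libraries of any group. The p-values therefore measure the spread between libraries alone, and that spread may be technical.

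MLX belongs to the helix-loop-helix transcription factors and binds DNA only with a partner. With MLXIP (MondoA) or MLXIPL (ChREBP) it raises genes when glucose is plentiful, through pairs of E-box-like elements, and with MNT and members of the MAD family it represses genes at E-boxes. In muscle cells MondoA is the main partner of the first kind, and the arrestin-like genes Txnip and Arrdc4 are its best-known targets.

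Both of those targets lay below the controls, as did Mnt and the MAD family gene Mxd4. The sequence before each start site is shown for these genes as examples of network genes or targets that lay below and have an element there. The element is a single CACGTG in Arrdc4, Mnt and Mxd4, and of these genes only Txnip has a pair. The sequences are from RefSeq (GRCm38.p6), 250 bases up to the start site, at chr3:96557707-96557956 (+ strand), chr7:68749239-68749488 (- strand), chr11:74830674-74830923 (+ strand) and chr5:34187711-34187960 (- strand). Capitals mark CACGTG, or in Txnip the pair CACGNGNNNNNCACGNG.
Txnip: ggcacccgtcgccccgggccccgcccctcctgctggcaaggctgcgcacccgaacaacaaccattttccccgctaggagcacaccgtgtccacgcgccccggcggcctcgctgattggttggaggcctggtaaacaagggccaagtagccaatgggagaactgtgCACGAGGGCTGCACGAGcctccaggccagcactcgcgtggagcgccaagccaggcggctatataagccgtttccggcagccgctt
Arrdc4: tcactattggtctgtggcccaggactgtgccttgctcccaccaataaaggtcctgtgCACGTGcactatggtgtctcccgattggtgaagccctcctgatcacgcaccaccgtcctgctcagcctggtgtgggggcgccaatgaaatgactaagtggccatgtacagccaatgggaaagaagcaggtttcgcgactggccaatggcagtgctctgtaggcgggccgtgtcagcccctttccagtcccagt
Mnt: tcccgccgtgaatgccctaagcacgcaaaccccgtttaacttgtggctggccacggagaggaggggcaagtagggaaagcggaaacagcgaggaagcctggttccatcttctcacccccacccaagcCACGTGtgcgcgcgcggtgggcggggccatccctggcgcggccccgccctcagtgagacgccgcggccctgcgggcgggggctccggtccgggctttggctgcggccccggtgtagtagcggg
Mxd4: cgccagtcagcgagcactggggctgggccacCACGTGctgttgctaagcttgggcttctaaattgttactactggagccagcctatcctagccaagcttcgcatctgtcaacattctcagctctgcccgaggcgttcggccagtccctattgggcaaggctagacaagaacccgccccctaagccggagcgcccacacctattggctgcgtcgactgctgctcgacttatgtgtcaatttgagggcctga

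The pair in Txnip read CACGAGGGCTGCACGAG and began 85 bases before the start site, and the CACGTG elements began 193 bases before it in Arrdc4, 123 in Mnt and 219 in Mxd4. CACGTG also began before a start site in network genes and targets that are not shown, among them Mlx, Max, Fgf21 and G6pc3. Of these, Mlx, Max and Fgf21 did not lie below all controls. The direct pair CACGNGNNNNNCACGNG, sought on both strands in the window from 250 bases before to 50 after the start site, was held by 15 of 27025 genes of the promoter table (0.056%) and by 10 of the 8685 tested genes that have a window. Of these 10, Txnip and Nfkb2 lay below the controls, none lay above, and the other 8 overlapped them. The single E-box CACGTG, which reads the same on both strands and is counted wherever it stands, was in 12.1% of the tested genes' windows. It was in 12.3% of the windows of the genes above the controls (91 of 740) and in 10.5% of those below (171 of 1631). Neither share stood far from that of all tested genes. A match is a description of letters and not of binding.

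Mlx was read first. It stood at 16.6, 17.6 and 17.1 FPKM in the GFP control and 16.3, 17.1 and 17.9 in the NT shRNA libraries. With MLX shRNA it was at 2.88, 3.95 and 2.80 FPKM, and with MLX-DN at 384, 399.9 and 398. The loss groups thus lay on opposite sides of the controls, with log2 changes of -1.88 for MLX shRNA against NT shRNA and 4.37 for MLX-DN against the GFP control (limma adjusted p = 3.76e-13 and 1.37e-17). All log2 values are on the scale of log2(FPKM + 2), which understates changes at low levels. The table does not separate reads of the MLX-DN construct from those of the cells' own gene, and Mlx overlaps Psmc3ip on the other strand. Protein was not analysed here, and the RNA level does not show how far the dominant-negative form lowered MLX activity.

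Depth was estimated at 37.0 to 82.8 M reads per library from the steps between low values, and libraries of a group correlated at r = 0.998 to 0.999. All 9 myoblast markers reached 1 FPKM (Myog at 445 to 706 FPKM over the 4 groups), and none of 8 endothelial markers did. The controls themselves stood apart, with 8854 of 11945 genes differing between them (74.1%; 37.0% higher and 37.1% lower in NT shRNA). MLX-DN libraries were nearer to the NT shRNA libraries (r = 0.986 to 0.989) than to their own GFP control (0.961 to 0.965).

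With the groups tested against each other by limma (Benjamini-Hochberg over all genes, threshold 0.05), 3132 genes differed in the same direction in all 4 pairings of a loss group with a control (26.2%), 987 of them higher (8.26%) and 2145 lower (18%). In the text below, "rose" and "fell" are used for these genes. They overlapped largely with the genes whose libraries do not overlap, since 903 were above and higher (7.56%) and 2018 below and lower (16.9%). Most differences were small. The smallest of the 4 pairings had a median size of 0.18 log2, 71 genes reached 1.5-fold in all 4 pairings, and 10 genes reached 2-fold. These 10 were Bglap2, Cd24a, Gbp8 and Gsta4, which rose, and Txnip, Gm15441, Col1a1, Fibin, Tk1 and Dcn, which fell. Gm15441 overlaps Txnip on the opposite strand.

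The loss effects were alike only in part. Against its own control, MLX-DN differed in 9723 genes (81.4%), 3892 higher (32.6%) and 5831 lower (48.8%), and MLX shRNA in 8369 (70.1%), 3674 higher (30.8%) and 4695 lower (39.3%). These comparisons share no library. Against the other control MLX-DN differed in 8331 genes (69.7%; 21.0% higher, 48.7% lower) and MLX shRNA in 9558 (80.0%; 37.3% higher, 42.8% lower). Genes lower in both numbered 2761, which is 47.4% of those lower with MLX-DN and 58.8% of those lower with MLX shRNA. Genes higher in both numbered 1640 (42.1% and 44.6%). Another 1253 were higher with MLX-DN and lower with MLX shRNA, and 1322 the reverse. Over the 11945 genes the changes correlated at r = 0.229, a description across genes that are not independent. The difference between the effects was itself called in 8937 genes (74.8%; 32.0% more positive with MLX-DN, 42.8% more negative), and in 2187 of the 3132 genes above, so that the size of the change differed between the loss groups even where the direction was shared.

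**Figure D1:**
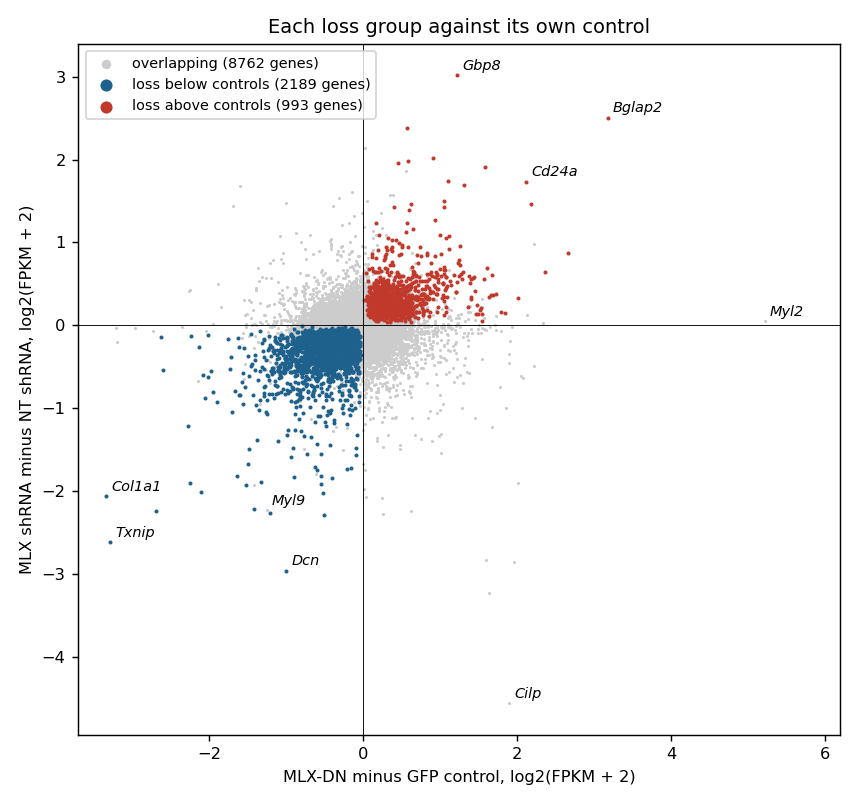
Each point is a tested gene other than Mlx, with its change in MLX-DN against the GFP control on the horizontal axis and in MLX shRNA against NT shRNA on the vertical axis, in log2(FPKM + 2). Genes above (993, red) and below (2189, blue) all controls fill the upper right and lower left, overlapping genes (grey) spread in every direction, and Txnip, Bglap2 and Col1a1 lie farthest from the origin among those coloured.

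Replication here is of libraries and not of constructs. With each construct taken as 1 unit (limma on the 4 group means, 1 residual degree of freedom before moderation) no gene passed after adjustment, against 3783 higher (31.7%) and 5773 lower (48.3%), 80.0% in all, for the same average with libraries as the unit, and 347 genes higher and 837 lower had an unadjusted p under 0.05. Txnip and Bglap2 then had an adjusted p of 0.0695, the lowest among the 12 largest rises and 12 largest falls. The balance of rises and falls also depends on scaling. In all 4 pairings, median centring of the libraries gave 1693 rises and 1296 falls, and quantile normalization gave 1488 and 1419.

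Of the glucose-responsive targets of MLX and its partners, Txnip had the largest average change of all tested genes, a fall, and the rest of the list was divided. Txnip encodes thioredoxin-interacting protein, which restrains glucose uptake. It stood at 30.5, 29.1 and 31.0 FPKM in the GFP control and 38.6, 40.2 and 39.1 in the NT shRNA libraries. It stood at 1.25, 1.17 and 1.51 FPKM with MLX-DN and 4.69, 4.54 and 4.93 with MLX shRNA, far below the lowest control in every loss library. The 4 log2 differences, MLX-DN against GFP and NT shRNA and then MLX shRNA against GFP and NT shRNA, were -3.28, -3.64, -2.26 and -2.62 (highest limma adjusted p = 6.77e-17), and the average was -2.95 (SE 0.0273). With MLX-WT it was at 37.9 ± 1.29 (SD, n = 3), within the range of the controls. The antisense gene Gm15441 moved along, at 14.3 and 18.1 FPKM in the controls against 0.531 with MLX-DN and 2.25 with MLX shRNA, and whether reads of the pair were told apart by strand is not stated.

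Arrdc4, an arrestin-domain relative of Txnip, was too low to be tested. It stood at 0.405, 0.354 and 0.338 FPKM in the GFP control and 0.2, 0.0929 and 0.0866 in the NT shRNA libraries. With MLX-DN it was at 0.0039, 0.0049 and 0 FPKM and with MLX shRNA at 0.0271, 0 and 0. All 6 loss libraries lay below all controls. With MLX-WT it was higher than in any control library, at 0.738, 0.91 and 0.882 FPKM.

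Of 26 tested members of this list, 5 fell and 4 rose, beside 18% and 8.26% of all tested genes, and the median average change was -0.12 (all tested genes, -0.05). With median centring, quantile normalization or centring by chromosome, 2 fell and 4 rose. As deposited, the falls besides Txnip were Arrdc2 (-0.16), another arrestin-domain gene, Pfkfb3 (-0.23), whose product makes the activator of glycolysis fructose 2,6-bisphosphate, the transcription factor gene Klf10 (-0.49) and the desaturase gene Fads2 (-0.61). The rises were Arrdc3 (0.31), Rgs16 (0.31), Kbtbd8 (0.21) and the stearoyl-CoA desaturase gene Scd2 (0.41), which stood at 218 and 197 FPKM in the controls against 302 with MLX-DN and 252 with MLX shRNA. The lipogenic genes Fasn, Acly and Acaca did not pass in all 4 pairings (averages -0.14, -0.21 and -0.06), and Acaca was at 0.02 with median centring. Fgf21, a hormone gene that ChREBP is known to raise in liver, was at 5.97 FPKM in the GFP control and 44.4 in the NT shRNA libraries. The loss groups lay between these, at 31.5 and 27.9 FPKM, so its direction depended on the control. Pdk4, the kinase that shuts pyruvate out of the citric acid cycle, was at 15.8 and 5.68 FPKM in the controls and 5.77 and 4.25 in the loss groups.

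In the MLX network, the genes that fell were Mnt and the MAD family genes Mxd1, Mxd3 and Mxd4. Of 11 tested members 4 fell (36.4%) and none rose, beside 18% and 8.26% of all tested genes. Mxd3, a MAD family gene, was at 22.2 and 17.6 FPKM in the controls against 11.7 with MLX-DN and 9.25 with MLX shRNA (average -0.81, SE 0.0244, highest adjusted p of the 4 limma tests 5.10e-09). Its relatives Mxd4 (-0.36) and Mxd1 (-0.30) and the MLX and MAX partner gene Mnt (-0.32) moved less. With median centring, quantile normalization or centring by chromosome 3 of the 11 fell, and the median of the list, -0.12 as deposited, was 0.05 with centring by chromosome. Median centring and quantile normalization each gave 1 rise. Mxi1, another MAD family gene, did not fall, at 3.77 and 5.47 FPKM in the controls against 4.29 with MLX-DN and 4.84 with MLX shRNA, and its average was near 0. Mlxip, the gene of MondoA, was at 4.08 and 4.76 FPKM in the controls against 3.93 with MLX-DN and 3.83 with MLX shRNA, and Max, the partner of MYC and the MAD proteins, was at 17.4 and 19 FPKM in the controls against 19.1 with MLX-DN and 21.9 with MLX shRNA. Myc was at 21.6 and 20.5 FPKM in the controls against 15.9 with MLX-DN and 23 with MLX shRNA. Mycl1, a MYC relative, was at 5.17 FPKM in the GFP control and at 15.7, 14.9 and 16.9 FPKM in the NT shRNA, MLX-DN and MLX shRNA groups.

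**Figure D2:**
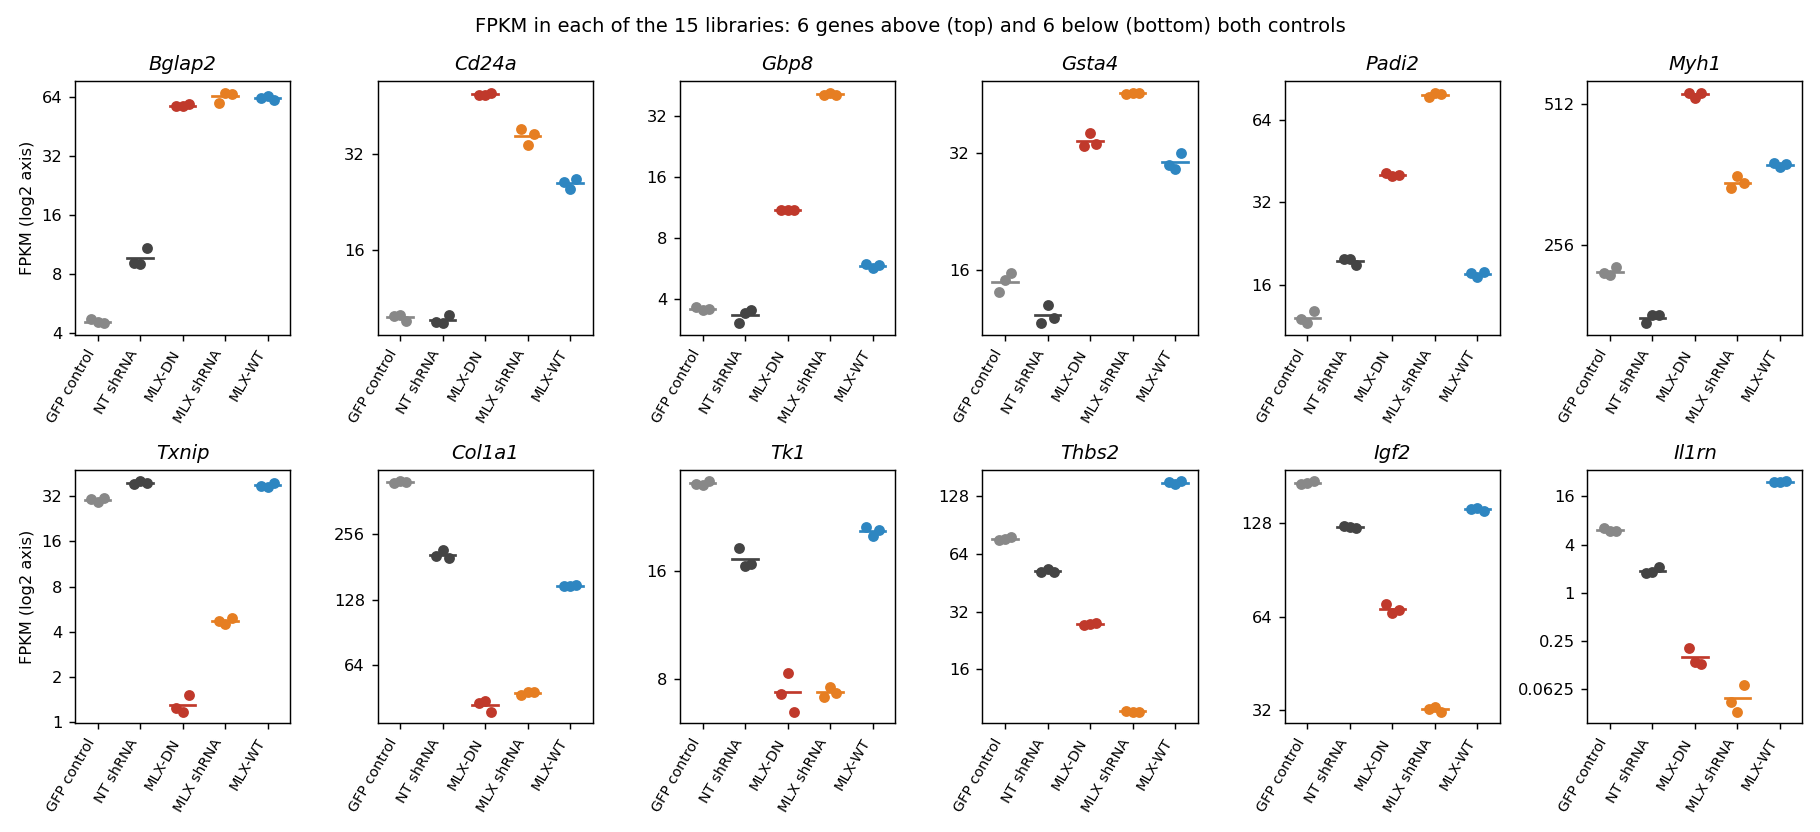
FPKM of 12 genes in each of the 15 libraries, on a log2 axis; points are libraries and short lines are the means of 3. In the upper row (Bglap2, Cd24a, Gbp8, Gsta4, Padi2 and Myh1) the MLX-DN and MLX shRNA points all lie above both controls, and in the lower row (Txnip, Col1a1, Tk1, Thbs2, Igf2 and Il1rn) all below.

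Genes of cell division fell almost as a block. Of 52 tested mitosis genes 50 fell and none rose, and of 50 DNA replication genes 42 fell and none rose, beside 18% falls among all tested genes. The median average changes were -0.64 for mitosis and -0.57 for replication. In a bulk sample fewer dividing cells and less RNA per cell cannot be told apart.

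Top2a, the topoisomerase that untangles chromosomes, was at 70.6, 69.3 and 68.7 FPKM in the GFP control and 56.7, 57.2 and 56.4 in the NT shRNA libraries. It was at 34.4, 35.0 and 35.8 FPKM with MLX-DN and 32.7, 31.2 and 31.6 with MLX shRNA, an average of -0.87 (SE 0.0164, highest limma adjusted p 3.39e-12). No loss library reached the lowest control. Racgap1, needed for cytokinesis (-0.86), the mitotic kinase gene Cdk1 (-0.74) and the proliferation marker Mki67 (-0.77) fell by like amounts. The 2 mitosis genes that did not pass were Smc4, which lay below all controls (highest limma adjusted p 0.0744), and Hmmr, whose loss libraries overlapped the controls (difference -0.04 for MLX-DN against NT shRNA).

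Among replication genes the helicase subunit gene Mcm3 was at 26.9, 26.4 and 25.2 FPKM in the GFP control, 21.1, 21.7 and 20.9 in NT shRNA, 9.97, 9.80 and 9.15 with MLX-DN and 12.1, 11.7 and 12.1 with MLX shRNA. Mcm2 (-0.91), Mcm4 (-0.89) and the methylation maintenance gene Uhrf1 (-1.07) fell in the same way. Tk1, the thymidine kinase of S phase, was at 28.2, 28.0 and 28.6 FPKM in the GFP control and 18.6, 16.5 and 16.7 in NT shRNA. It was at 7.27, 8.29 and 6.47 FPKM with MLX-DN and 7.13, 7.59 and 7.31 with MLX shRNA, and the loss groups overlapped each other. Gmnn, the inhibitor of licensing (-0.99), and Tcf19, a transcription factor gene of dividing cells (-1.18), were also among the 12 largest falls.

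The controls differed in the same genes, since Top2a, Mcm3 and Tk1 were lower in NT shRNA than in the GFP control. MLX-WT was at 60.8 FPKM for Top2a and 20.7 for Tk1, within the span of the controls. Mcm3 was at 18 FPKM with MLX-WT, below every control library. The median of the replication list, relative to the mean of the controls, was -0.21 to -0.26 in the MLX-WT libraries. That was below all controls (lowest -0.11), and the loss libraries were at -0.50 to -0.64. The mitosis median was -0.06 to -0.08 with MLX-WT, within the span of the controls. With the 3 other scalings (median centring, quantile normalization and centring by chromosome) the counts of falls were 41 to 43 of 52 for mitosis and 39 to 41 of 50 for replication, with no rises.

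Of the G1 regulators, 5 of 13 fell and 1 rose (38.5% and 7.69%), beside 18% and 8.26% of all tested genes. Ccnd3, the cyclin D most used in muscle differentiation, fell (-0.91, 248 and 138 FPKM in the controls against 92.5 with MLX-DN and 102 with MLX shRNA), and Cdk4, its kinase partner, fell by less (-0.51). Ccnd2 rose (0.42). Ccnd1 did not pass, at 10.9 and 9.13 FPKM in the controls against 8.69 with MLX-DN and 23.7 with MLX shRNA. Ccnd3 and Cdk4 overlap expressed genes on the opposite strand (Bysl and Tspan31), and their values are uncertain to that extent.

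Many matrix genes fell. Of 56 tested extracellular matrix genes 25 fell and none rose in all 4 pairings, beside 18% and 8.26% of all tested genes, with a median average change of -0.49. By the average alone 44 were lower and 10 higher, beside 48.3% and 31.7% of all tested genes. The median of the list, relative to the mean of the controls, was -0.24 to -0.31 in the MLX-DN libraries and -0.75 to -0.80 in the MLX shRNA libraries. It was also below all controls in the MLX-WT libraries, at -0.36 to -0.41. Col1a1, a chain of type I collagen, was at 438, 448 and 442 FPKM in the GFP control and 203, 216 and 198 in the NT shRNA libraries. It was at 43.1, 43.7 and 39.0 FPKM with MLX-DN and 46.9, 48.2 and 48.0 with MLX shRNA, an average of -2.70 (SE 0.0258, highest limma adjusted p 3.20e-16). The lowest NT shRNA library stood far above the highest loss library. With MLX-WT Col1a1 was at 148 ± 1.04 FPKM (SD, n = 3), also under both controls.

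Col1a2, the other chain of type I collagen (-1.38), and Col3a1 of type III collagen (-1.17) fell with it. Dcn, decorin, a proteoglycan that binds collagen fibrils, was at 9.12 and 17 FPKM in the controls against 3.56 with MLX-DN and 0.445 with MLX shRNA. Thbs2, the matricellular protein thrombospondin 2, was at 75.8, 76.7 and 78.8 FPKM in the GFP control, 51.5, 53.5 and 51.7 in NT shRNA, 27.2, 27.7 and 27.9 with MLX-DN and 9.71, 9.57 and 9.60 with MLX shRNA. With MLX-WT it was higher than in either control, at 151 ± 2.83 (SD, n = 3). Fibin, a secreted protein gene, fell by 1.75 on the log2 scale and was at 15.6 FPKM with MLX-WT, close to its GFP control value of 15.7. With the 3 other scalings 21 to 25 of the 56 fell, and 1 rose with centring by chromosome.

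Fibroblast markers fell in part, and matrix genes made up most of their summed level. The sum was 2068 to 2098 FPKM in the GFP control and 1775 to 1863 in NT shRNA. It was 1022 to 1056 FPKM with MLX-DN and 768 to 777 with MLX shRNA. In the GFP control Col1a1, Col1a2 and Col3a1 alone stood at 443, 527 and 950 FPKM. Of 10 tested markers 6 fell and none rose, beside 18% and 8.26% of all tested genes, and 4 of these 6 (Col1a1, Col1a2, Col3a1 and Dcn) are matrix genes themselves. Postn was at 49.2 and 163 FPKM in the controls against 84.2 with MLX-DN and 248 with MLX shRNA. With MLX-DN, Pdgfrb (42.1 FPKM) and Dpt (1.05 FPKM) lay between the controls. Thy1, Twist1 and Tcf21 never reached 0.1 FPKM in any library. The part of fibroblast-like cells in the fall of the matrix genes was not tested.

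Of 58 secreted muscle factors 12 fell and 3 rose (20.7% and 5.17%), shares near the 18% and 8.26% of all tested genes, and 7 fell with each of the 3 other scalings. Igf2, the insulin-like growth factor that myoblasts make as they differentiate, was at 172, 172 and 175 FPKM in the GFP control and 126, 124 and 124 in NT shRNA. It was at 70.1, 65.7 and 67.3 FPKM with MLX-DN and 32.2, 32.7 and 31.5 with MLX shRNA, an average of -1.61 (SE 0.0166, highest limma adjusted p 1.73e-13). Each group stood apart from every other. H19, the non-coding RNA gene that lies next to Igf2 and is expressed from the other parental copy, moved the opposite way, at 1563 and 2329.9 FPKM in the controls against 3309 with MLX-DN and 3501 with MLX shRNA (average 0.83).

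Of 15 genes of the IGF system 4 fell and H19 alone rose (26.7% and 6.67%), beside 18% and 8.26% of all tested genes. The other falls were Igfbp7 (-1.27), an IGF-binding protein relative, the receptor gene Igf1r (-0.44) and the adaptor gene Irs2 (-0.22). Median centring also gave 4 falls and 1 rise, quantile normalization gave 4 and 2, and centring by chromosome gave 3 and 2. Igfbp2, another binding protein gene, was at 20.3 and 156 FPKM in the controls and 102 and 309 in the loss groups, so that MLX-DN lay between the controls and MLX shRNA above both.

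Il1rn, the interleukin-1 receptor antagonist, was at 6.36, 5.92 and 5.84 FPKM in the GFP control and 1.78, 1.83 and 2.07 in NT shRNA. It was at 0.202, 0.139 and 0.128 FPKM with MLX-DN and 0.0427, 0.0326 and 0.0698 with MLX shRNA, and at 24.5, 24.2 and 24.7 with MLX-WT. The order MLX-WT, GFP control, NT shRNA, MLX-DN and MLX shRNA held without overlap, but its last step is uncertain. The MLX shRNA values lay near the floor of 3 reads, which is 0.0287 to 0.0405 FPKM at 2000 bases in those libraries. Lpl, lipoprotein lipase, was also highest with MLX-WT, at 70.0 FPKM, with 18.7 and 14 FPKM in the controls against 2.89 with MLX-DN and 8.55 with MLX shRNA (average -1.34). Apoe, apolipoprotein E (-1.37), stood at 15.8 FPKM with MLX-WT and at 5.69 and 9.24 FPKM in the controls against 2.13 with MLX-DN and 1.15 with MLX shRNA. Parm1, a mucin-like membrane protein gene, fell as well (-1.23) and was at 1.24 FPKM with MLX-WT, below both controls.

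The largest rise was in osteocalcin. Bglap2, which encodes osteocalcin-2, a protein of bone matrix, was at 4.71, 4.57 and 4.51 FPKM in the GFP control and 9.09, 8.97 and 10.9 in NT shRNA. It was at 57.0, 57.0 and 58.5 FPKM with MLX-DN and 59.3, 67.0 and 66.0 with MLX shRNA, an average of 2.84 (SE 0.0375, highest limma adjusted p 1.80e-14). The MLX-WT libraries were as high, at 63.1, 64.3 and 61.6 FPKM. Bglap, a near copy whose reads cannot be cleanly separated from it, rose at a much lower level (0.264 and 0.432 FPKM in the controls against 2.81 with MLX-DN and 3.05 with MLX shRNA). The other bone markers tested did not pass, with Spp1 at -0.51 and the bone regulator Runx2 at -0.09, which was at 0.01 with quantile normalization.

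Cd24a, the gene of a small sugar-coated surface protein of precursor cells, was at 9.91, 9.99 and 9.54 FPKM in the GFP control, 9.47, 9.39 and 9.98 in NT shRNA, 49.1, 49.0 and 50.1 with MLX-DN and 38.4, 34.3 and 37.1 with MLX shRNA. The controls lay together here, and the average was 1.93 (SE 0.0264). MLX-WT was between, at 25.9 ± 0.98 FPKM (SD, n = 3). Gsta4, the glutathione transferase that clears products of lipid oxidation, was at 14.9 and 12.2 FPKM in the controls against 34.4 with MLX-DN and 45.6 with MLX shRNA, and at 30.4 with MLX-WT. Padi2, which turns arginine in proteins into citrulline, was at 12.1 and 19.6 FPKM in the controls against 40.4 with MLX-DN and 79.3 with MLX shRNA. Its MLX-WT value of 17.5 FPKM lay within the span of the controls. St8sia2, the enzyme that puts polysialic acid on the adhesion molecule NCAM, was at 5.87 and 11.8 FPKM in the controls against 21.9 with MLX-DN and 20.3 with MLX shRNA, and Ncam1 itself rose a little (0.36).

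Gbp8 and Gbp9, guanylate-binding proteins of a family of near copies, were low in the controls and highest with MLX shRNA. Gbp8 was at 3.66, 3.56 and 3.60 FPKM in the GFP control, 3.05, 3.44 and 3.53 in NT shRNA, 11.1, 11 and 11.1 with MLX-DN and 40.7, 41.9 and 40.9 with MLX shRNA. The effect with MLX-DN was smaller than that with MLX shRNA, with a difference of -1.80 log2 (limma adjusted p = 2.22e-14). Gbp9 stood at 2.62 and 3.08 FPKM in the controls against 6.70 with MLX-DN and 18.6 with MLX shRNA. Reads of these copies may be split between them. Cryba4, a crystallin gene (1.09), and Susd5, a sushi domain gene (1.04), complete the 12 largest rises.

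Guanylate-binding proteins belong to the interferon response. Of 37 tested interferon genes 10 fell and 4 rose (27.0% and 10.8%), beside 18% and 8.26% of all tested genes. The rises were Gbp4 (1.28), Gbp6 (1.21) and, by small amounts, the class I antigen genes H2-D1 (0.12) and H2-K1 (0.29). Among the falls was Tapbp, which loads peptides onto class I molecules (-0.80, 25.1 and 20.3 FPKM in the controls against 13.4 with MLX-DN and 11 with MLX shRNA). With the 3 other scalings the falls numbered 5 or 6 and the rises 4 or 5, so falls and rises were then close in number.

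**Figure D3:**
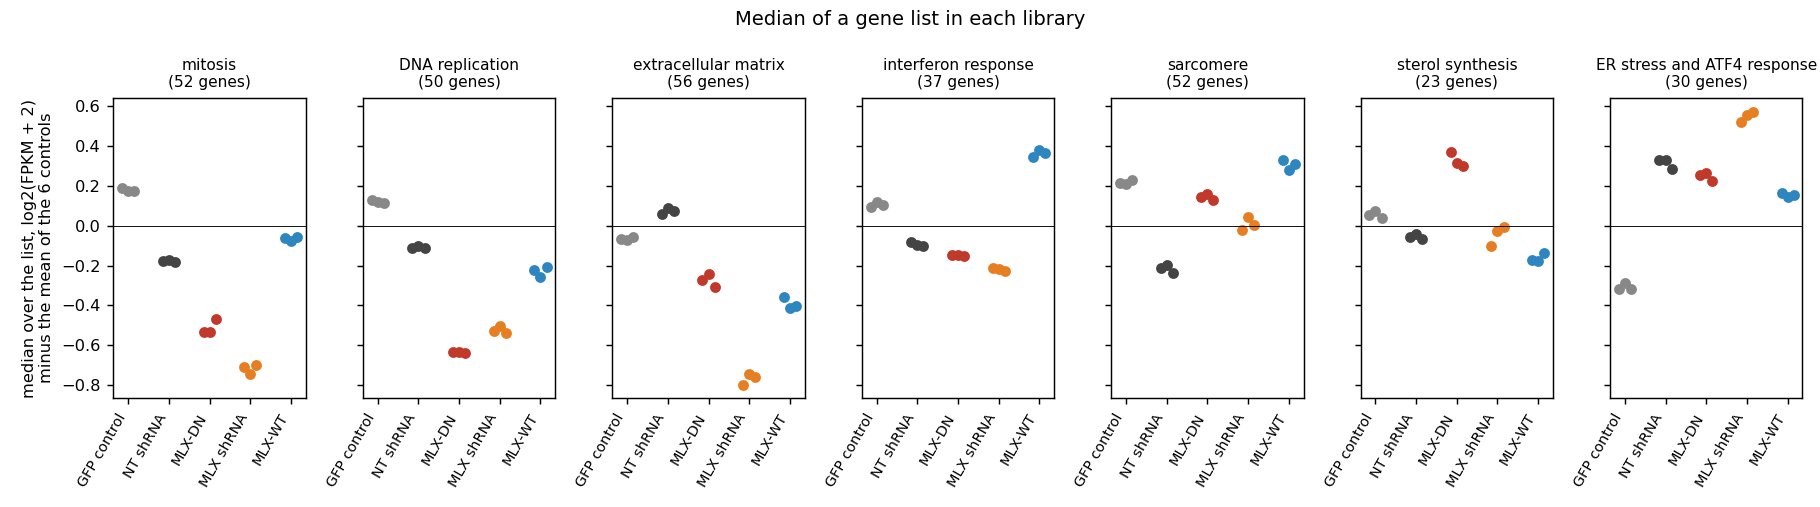
Median over the tested genes of 7 lists in each of the 15 libraries, as the difference from the mean of the 6 control libraries in log2(FPKM + 2). The mitosis, replication and matrix panels have all 6 loss libraries below all 6 controls, while in the sarcomere panel they lie within the span of the controls and in the ER stress panel MLX-DN lies within it and MLX shRNA above.

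Of 52 sarcomere genes 13 rose and 1 fell, beside 8.26% and 18% of all tested genes. Myh1, the myosin heavy chain of fast fibres, was at 222, 221 and 229.6 FPKM in the GFP control, 174, 181 and 181 in NT shRNA, 542, 529 and 542 with MLX-DN and 338, 359 and 347 with MLX shRNA. All loss libraries were above all controls, with an average of 1.10 (SE 0.0179). Tmod1, which caps the thin filament, was at 30.8 and 48.7 FPKM in the controls against 62.0 with MLX-DN and 75.3 with MLX shRNA, and it overlaps Tstd2 on the opposite strand. Ankrd1, a stretch-responsive protein of the sarcomere that the lists count with YAP targets, was at 463 and 560.0 FPKM in the controls against 924 with MLX-DN and 1198 with MLX shRNA. The fall was in Tpm3, a tropomyosin gene (-0.48).

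The list as a whole did not move one way, since its median was -0.10 for MLX-DN against the GFP control and 0.41 against NT shRNA. Myl2, the slow regulatory light chain, was at 2.90, 2.91 and 3.03 FPKM in the GFP control, 26.1, 27.1 and 23.8 in NT shRNA, 179, 189 and 178 with MLX-DN and 26.2, 28.6 and 25.2 with MLX shRNA. It was highest with MLX-DN among these groups, while no difference between MLX shRNA and NT shRNA was detected (difference 0.05, limma adjusted p = 0.336). Mybpc1, slow myosin-binding protein C, was at 28.7 FPKM in the GFP control and at 0.943, 1.35 and 0.561 in the other 3 groups. Of 31 genes of excitation-contraction coupling and muscle metabolism 5 rose and 2 fell (16.1% and 6.45%), beside 8.26% and 18% of all tested genes. Among the rises were Casq2, a calcium store protein gene (0.66), and Chrna1, the acetylcholine receptor subunit (0.42). The 2 that fell were the calcium pump gene Atp2a1 (-0.67) and the creatine kinase gene Ckm (-0.67), which overlaps an expressed gene on the opposite strand.

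Of 25 myogenic regulators 3 rose and 5 fell, shares near the 8.26% and 18% of all tested genes. Id1, which holds back myogenic factors, fell (-1.01, 62.1 and 41.8 FPKM in the controls against 24.4 with MLX-DN and 24.2 with MLX shRNA), and Id3 fell by less (-0.59). Pax7, the factor of satellite cells, rose from a low level (0.872 and 2.83 FPKM in the controls against 3.88 with MLX-DN and 4.22 with MLX shRNA). Myog did not pass, at 445 and 657 FPKM in the controls against 706 with MLX-DN and 578 with MLX shRNA, and neither did Mef2c, at 22.0 and 5.97 FPKM in the controls against 6.91 with MLX-DN and 7.04 with MLX shRNA.

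Genes of mitochondrial fuel use were moved in both directions. Of 42 genes of the citric acid cycle and fatty acid oxidation 11 rose and 5 fell (26.2% and 11.9%), beside 8.26% and 18% of all tested genes. Pdhb, a subunit of pyruvate dehydrogenase, was at 119 and 122 FPKM in the controls against 169.7 with MLX-DN and 159 with MLX shRNA (average 0.44, SE 0.0166). Hadhb, of the trifunctional enzyme of fatty acid oxidation, rose (0.48), and Cpt1a, the carrier step into mitochondria, fell (-0.71). With the 3 other scalings 10 to 15 rose and 2 or 3 fell. In sterol synthesis 4 of 23 rose and 1 fell (17.4% and 4.35%). The median of that list was 0.24 and 0.39 for MLX-DN against GFP and NT shRNA, but -0.07 and -0.02 for MLX shRNA against them. Fdps (0.52), Pmvk (0.39), Cyp51 (0.36) and Sc4mol (0.56) rose, while Srebf2, the regulator of the pathway, fell (-0.51). Acacb, the acetyl-CoA carboxylase that restrains fatty acid oxidation, rose from a low level (0.339 and 0.667 FPKM in the controls against 2.46 with MLX-DN and 1.99 with MLX shRNA).

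In glycolysis 4 of 24 fell and none rose. The share of falls (16.7%) was near the 18% of all tested genes, of which 8.26% rose. Pgam1, phosphoglycerate mutase of most tissues, was among them (-0.25), and Pgam2, its muscle form, was at 82.9 and 28.7 FPKM in the controls against 45.3 with MLX-DN and 16.7 with MLX shRNA. G6pdx, the first enzyme of the pentose phosphate pathway, fell (-0.67, 32.7 and 23.3 FPKM in the controls against 19.4 with MLX-DN and 14.1 with MLX shRNA). Of 22 hypoxia genes 3 rose and 1 fell (13.6% and 4.55%), beside 8.26% and 18% of all tested genes. The angiogenic factor gene Vegfa was among the rises (0.59).

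The direction of the ER stress and ATF4 list depended on the control. The 30 tested genes had a median average of 0.43, but MLX-DN against NT shRNA had a median of -0.12 and against the GFP control 0.60. In all 4 pairings 5 of the 30 rose (16.7%) and none fell, beside 8.26% and 18% of all tested genes. Hspa5, the main chaperone of the ER, was at 319 and 594 FPKM in the controls against 738 with MLX-DN and 787 with MLX shRNA, and Asns, asparagine synthetase, at 37.7 and 67.7 FPKM in the controls against 71.5 with MLX-DN and 103 with MLX shRNA. Calr, calreticulin, was at 386 FPKM in the GFP control and 1226 in NT shRNA, with the loss groups at 1056 and 1285, and did not pass.

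**Figure D4:**
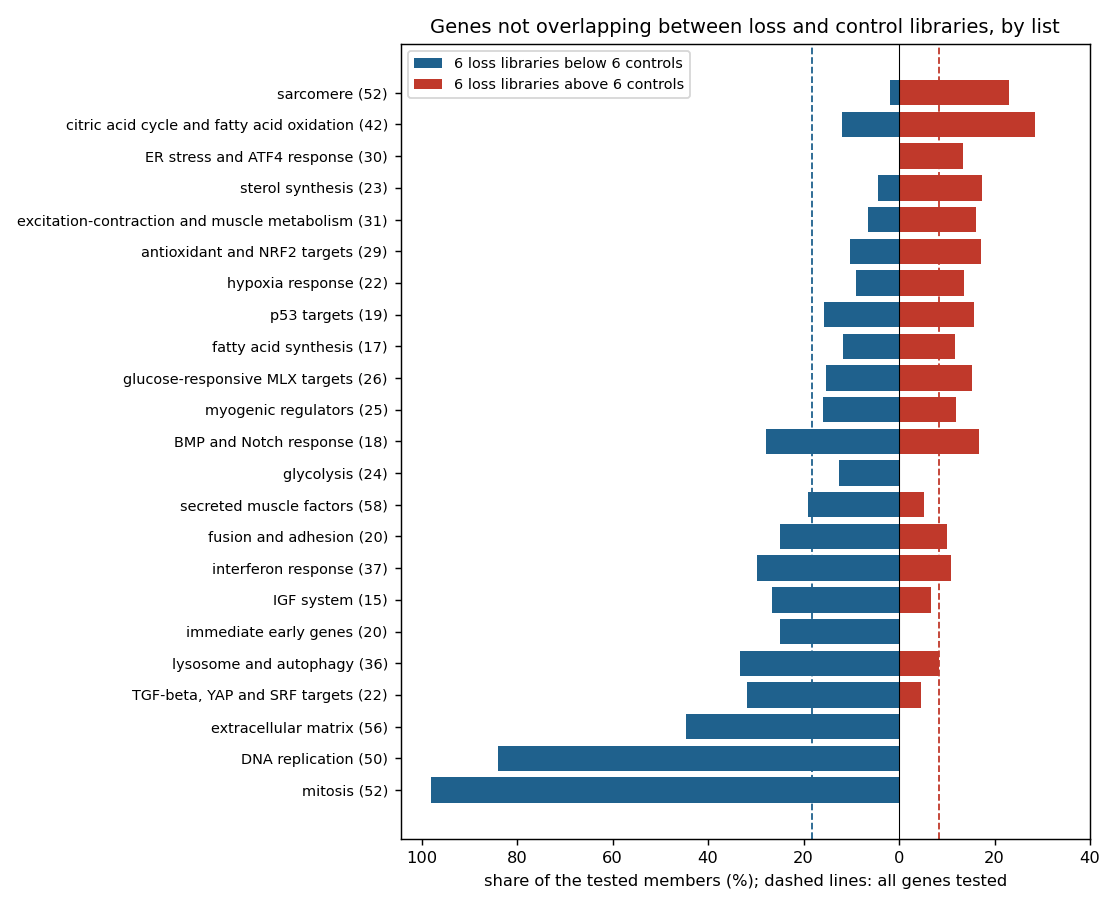
Share of the tested members of each list (number in brackets) whose 6 loss libraries all lie above (red, to the right) or all below (blue, to the left) the 6 controls, for lists with at least 15 tested members; dashed lines are the shares of all tested genes, 8.31% and 18.3%. Mitosis, DNA replication and the extracellular matrix reach farthest to the left, and the citric acid cycle and the sarcomere farthest to the right.

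The share of genes above or below the controls differed between chromosomes. On chromosome 9, 181 of 674 tested genes lay above all controls (26.9%) and 8.31% below, and on chromosome 14, 102 of 421 lay above (24.2%) and 8.55% below. On chromosome 16 only 5 of 368 lay above (1.36%) and 28.8% below. Chromosome 1 had 2.33% above and 25.5% below.

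The shift was small per gene and ran in the same direction in all 4 pairings on chromosomes 9 and 14. On chromosome 9 the medians for MLX-DN against GFP and NT shRNA were 0.05 and 0.06, and for MLX shRNA against them 0.14 and 0.15. On chromosome 14 they were 0.03, 0.05, 0.10 and 0.12. Divided into 10 stretches of equal gene number, chromosome 9 had medians of the average effect of 0.0151 to 0.156, above 0 in 10 of 10 stretches, and chromosome 14 had -0.0294 to 0.131, above 0 in 9 of 10. The average was thus raised along most of both chromosomes, but the pairings differed. MLX-DN against the GFP control was below 0 in some stretches, down to -0.0746 on chromosome 9 and -0.0985 on chromosome 14. MLX shRNA against NT shRNA was above 0 in every stretch, with lowest medians of 0.09 on chromosome 9 and 0.025 on chromosome 14. MLX-WT against the GFP control had medians of -0.05 on chromosome 9 and 0.10 on chromosome 14.

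The controls also differed by chromosome, with NT shRNA minus GFP medians from -0.16 on chromosome 15 to 0.20 on chromosome 13. With each chromosome centred on its own median in every library, an alternative chosen after seeing the data, chromosome 9 had 15% above and 15% below, chromosome 14 had 11.9% and 14.5%, and chromosome 16 had 14.1% and 10.1%. Over all tested genes that centring left 1626 genes above and 1388 below. Of the 987 rises 822 remained, and of the 2145 falls 1207. The largest changes moved little: of the 12 largest rises, Gsta4 and Susd5 lie on chromosome 9 and their averages went from 1.42 to 1.35 and from 1.04 to 0.97. The cause of the shifts was not tested.

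**Figure D5:**
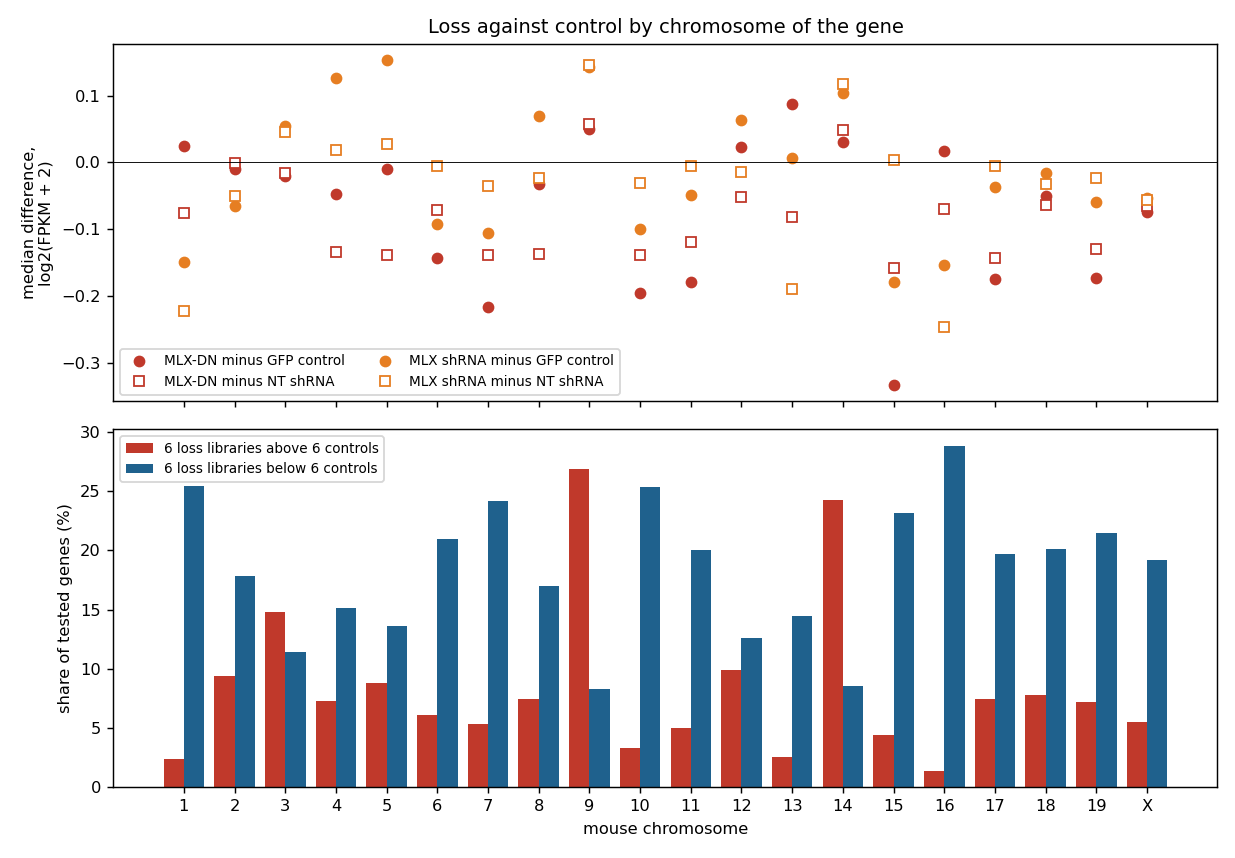
Upper panel: median difference of the tested genes of each mouse chromosome in the 4 pairings of a loss group with a control, in log2(FPKM + 2); lower panel: share of its genes with all 6 loss libraries above (red) or below (blue) all 6 controls. Chromosomes 9 and 14 have all 4 medians above 0 and the highest red bars, and chromosome 16 has the lowest.

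The shares also varied with the level of a gene. Of the 2987 genes of lowest mean FPKM (up to 4.10) 4.96% lay above and 20.1% below, and of the 2986 of highest mean FPKM (from 26.6) 13% and 13.4%. At the edge of the rule, Scarb1, Pqlc1 and Cenpk lay just below all controls, with gaps between the highest loss and the lowest control library of 0.00015, 0.00026 and 0.00027 log2. Sema3a, Eif2a and Nudt14 missed it by 0.00001, 0.00012 and 0.00014, so membership at this edge has no meaning of its own.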

How the data were processed

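Messenger RNA was measured in 15 libraries, 3 per group, with groups and replicate numbers from the labels. Per the labels' protocols, poly(A) RNA went into a kit that keeps strand. CASAVA, TopHat2, STAR and the build mm9 stand in the submitters' processing notes with no role or version. The authors deposited log2 values for 23352 genes. Their lowest value was 1 in every library, so they were read as log2(FPKM + 2) and FPKM as 2 to that power minus 2, and the fit used them as deposited. Depth was estimated from the steps of low values over 15972 genes of 1 length, where 64.5% to 68.1% of values lay within 0.05 of whole reads against 23.5% to 29.0% at nearby depths. The floor of 3 reads at 2000 bases is 0.0181 to 0.0405 FPKM and covers counting error only.

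The test was limma (3.58.1, R 4.3.3) with 1 mean per group over all 15 libraries, a variance trend, two-sided, Benjamini-Hochberg over 11945 genes with at least 1 FPKM in at least 3 libraries, threshold 0.05. The average effect is the mean of the loss groups minus the mean of the controls. On simulated data over 11945 genes the fit recovered 92%, 96%, 100% and 100% of genes changed 1.25-, 1.5-, 2- and 4-fold for that effect, and the rule of all 4 pairings, on which rose and fell rest, recovered 74%, 92%, 100% and 100%. The simulated controls had the same means, and both simulated loss groups had the same change. In the data 74.1% of genes differed between the controls and 74.8% between the loss effects. The recovery by the rule of all 4 pairings therefore does not carry over to the data. Genes named are the 12 largest rises and falls by the smallest of the 4 pairings (called in all 4, not overlapping, at least 2 FPKM in the highest group, predicted genes left out), the MLX lists, up to 4 genes per list with the lowest p for the average, the largest differences of the effects, and genes at the edge of the rule. Some genes that this rule selects are not reported here. Genes that spell out a count were named after their values were seen. Gene lists are described by counts and medians with no set test. The members and lists were chosen with earlier results of these data known. The alternatives changed the offset, the filter, the scaling, the variance trend, the libraries entered, a 2-fold limit, the unit (construct) or a replicate block, and centring by chromosome was added after seeing the data. Promoter sequences and chromosomes came from RefSeq (GRCm38.p6), matched by symbol for 8685 and 99.5% of the tested genes, and the build differs from the mm9 of the notes, so no other coordinates are printed.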

Additional observations from a re-analysis of the deposited data

Results flagged for a closer look

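The effect of MLX-DN against the GFP control and that of MLX shRNA against NT shRNA were compared by the limma test of the difference itself. Given here are those of the 12 largest rises and falls, and of the genes of lowest p for the difference, in which it was at least 1 log2, and other genes named in the text differed by as much. In Gbp8 (-1.80) and Gbp9 (-1.11) the rise was larger with MLX shRNA. In Col1a1 (-1.28) and Fibin (-1.06) the fall was larger with MLX-DN, and in Dcn (1.96) it was larger with MLX shRNA. The 9 genes given for their low p were not called in all 4 pairings. Cilp, a matrix protein gene of cartilage (6.46), was at 6.08 and 51.8 FPKM in the GFP control and NT shRNA and at 28.1 and 0.281 with MLX-DN and MLX shRNA. The slow light chain gene Myl2 (5.16), the extracellular superoxide dismutase gene Sod3 (4.81) and the microfibril gene Mfap5 (4.43) were also more positive with MLX-DN. In each of these 4 genes the NT shRNA group was far above the GFP control, so the difference depends on which control each effect is read against. The opposite held for the membrane protein gene Tspan7 (-3.13), the prostaglandin-degrading enzyme gene Hpgd (-2.93), the fast myosin gene Myh4 (-2.68), cardiac actin, Actc1 (-1.84), and the surface protein gene Ly6e (-1.98). Hpgd was at 14.1 FPKM in the GFP control and 0.0766 in NT shRNA, with 0.0559 and 0.0279 in the loss groups.

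The MLX-WT libraries, which are in neither the loss nor the control group, held 5 genes that reached 1 FPKM in all 3 of them and stayed under 0.05 FPKM in every other library. Their MLX-WT means were 2.68 FPKM for Dct, 1.37 for Ndp, 2.39 for Opcml, 1.15 for Slitrk1 and 3.06 for Tekt3. Mlx itself was at 644 FPKM there, which may include reads of the construct.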

How the results depend on the processing

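The balance of directions depended on scaling. Genes above and below all controls went from 993 and 2189 to 1711 and 1349 with median centring and 1626 and 1388 with centring by chromosome. Genes called in all 4 pairings went from 987 and 2145 to 1693 and 1296 with median centring, 1488 and 1419 with quantile normalization, and 1603 and 1338 with centring by chromosome. With a 2-fold limit the higher and lower counts were 38 and 89 for the average, 4 and 6 both for the 4 pairings and for genes not overlapping, 198 and 264 for MLX-DN against GFP, 58 and 122 for MLX shRNA against NT shRNA, 300 and 233 for the difference of the effects, and 165 and 135 between the controls. With the construct as the unit the average gave 0 and 0, and 159 of 166 named genes lost their call.

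Without 1 library in turn the higher and lower counts ranged over 3699 to 3796 and 5665 to 5782 (average), 909 to 1054 and 1982 to 2162 (all 4 pairings), 1009 to 1137 and 2221 to 2388 (not overlapping), 3773 to 3944 and 5673 to 5871 (MLX-DN against GFP), 3441 to 3698 and 4448 to 4712 (MLX shRNA against NT shRNA), 3692 to 3841 and 4956 to 5132 (difference) and 4193 to 4484 and 4202 to 4492 (controls). Mlx ranged over 4.35 to 4.39 and -1.98 to -1.82.

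Average changes near 0 reversed: Acaca (median centring 0.0159, quantile 0.0285, by chromosome 0.0732), Mxi1 (0.0708, 0.114 and 0.109), Runx2 (quantile 0.00835, by chromosome 0.0653) and, by chromosome, Gpd1 (0.0727), Myc (0.0475) and Tfeb (0.0953). A replicate block gave 3803 and 5787 for the average and 1003 and 2133 for the 4 pairings and changed no call of a named gene. Same-numbered libraries of different groups correlated at -0.09 to 0.18 in their deviations (median 0.04), over 0.1 in 3 of 18 pairs. The median for libraries of different number was -0.01. With 3 libraries per group these values cannot decide whether the numbers pair the samples. Each count rests on 3 libraries and 1 construct per group, and FPKM near the floor of 3 reads limits genes such as Arrdc4.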

Other observations

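Ptprc, which encodes CD45, the common antigen of blood cells, was seen only with MLX-DN, at 4.39, 4.52 and 4.74 FPKM, and was at most 0.0099 FPKM in every other library. Of 10 immune markers, Ptprc among them, 3 reached 1 FPKM in some library and 4 never reached 0.1 FPKM. Cd14 was at 2.66 and 4.03 FPKM in the controls against 2.42 with MLX-DN and 4.04 with MLX shRNA. Cd68 was at 1.02 and 1.01 FPKM in the controls against 0.871 with MLX-DN and 1.16 with MLX shRNA. Tyrobp and Emr1 were at 0 in all 15 libraries.

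Genes of signalling that the text has not described moved in both directions, and their counts are to be read beside the 18% that fell and the 8.26% that rose among all tested genes. Of 18 BMP and Notch genes 5 fell and 3 rose: the modifier of Notch Lfng (-0.63) fell with Id1 and Id3, and the Notch target Hey1 rose (0.39). Of 20 immediate early genes 5 fell and none rose, among them Egr1 (-0.65, 99.8 and 58.8 FPKM in the controls against 46.3 with MLX-DN and 50.2 with MLX shRNA), Egr3 (-1.13) and Klf4 (-0.82), and MLX-WT lay below both controls for Egr1, at 48.6 FPKM. The median of that list was -0.36 and -0.29 for MLX-DN against GFP and NT shRNA, but 0.16 and -0.14 for MLX shRNA against them. Of 36 lysosome and autophagy genes 10 fell and 3 rose. The autophagosome gene Map1lc3a (0.62) and the protease gene Ctsh (0.79) rose, and the autophagy receptor gene Sqstm1 (-0.33) fell. Of 19 p53 targets, the count of which includes Trp53 itself (-0.43), 3 fell and 2 rose (15.8% and 10.5%), near those shares, the rises being Eda2r (0.65) and Ei24 (0.44). Of 22 targets of TGF-beta, YAP and SRF 6 fell and 1 rose: the smooth muscle actin gene Actg2 fell (-1.59, 267 and 110.0 FPKM in the controls against 93.2 with MLX-DN and 33.1 with MLX shRNA) and Ankrd1 rose. Of 29 antioxidant genes 5 rose and 2 fell, with peroxiredoxin 2, Prdx2, at 289 and 723 FPKM in the controls against 767 with MLX-DN and 1067 with MLX shRNA.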
